A study of Homo sapiens with 8 samples.

Results

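The comparison set cells carrying full-length TET1 plasmids, labelled TET1-FL (wild type) and mTET1-FL (catalytic mutant), against cells carrying the plasmids labelled TET1-CD and mTET1-CD, in which CD stands for the catalytic domain. The columns with these titles were taken, 4 of the 8 arrays of the series, and were paired by enzyme state, so that wild type was set against wild type and mutant against mutant. All were HEK293T cells, a human embryonic kidney line carrying large T antigen, sorted by fluorescence 3 days after transfection with FuGene HD, and 100 ng of their RNA was labelled for Affymetrix arrays. Another array, of cells given the empty vector in the same way, is used below as a reference point. The remaining 3 arrays, a control shRNA clone and 2 clones with shRNA against TET1, entered the same fit, in which only the gap between the TET1 clones adds to the estimated spread. Each plasmid had 1 array, no label names separate cultures or batches, and construct and any difference in handling between the CD and the FL cells cannot be told apart.

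TET1 oxidises 5-methylcytosine in DNA, the first step of active demethylation. The full protein has an amino-terminal region with a CXXC zinc finger, which binds CpG-rich DNA, and a carboxy-terminal catalytic domain that holds the iron- and oxoglutarate-binding site. It also binds partners such as SIN3A and OGT. A CD plasmid supplies the enzyme without the amino-terminal region, and a mutant plasmid supplies the protein without its activity, so FL minus CD within an enzyme state is the comparison that bears on the part of the protein outside the catalytic domain.

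Values are log2 signals, so that a difference of 1 is a 2-fold difference, and errors are standard errors (SE) from a limma fit in which the spread had 2 residual degrees of freedom. A transcript cluster, the unit the array reports, stayed in if its signal exceeded the array median (5.47 to 5.55) on 2 or more of the 8 arrays, which left 28946 clusters, 11560 of them with a gene symbol, for 10797 genes. Signals near or below those medians may be held up by background, and differences that rest on them may be understated. HEK293T markers were present, with 6 of the 6 measured markers (KRT18, VIM, EPCAM, KRT8, PAX2 and LHX1, of 8 listed) above the median on all 4 TET1 arrays and a summed level of 10.5 and 10.3 with TET1-CD and mTET1-CD and of 10.7 and 10.6 with TET1-FL and mTET1-FL. Of 8 measured markers of other cell types (16 listed), DES, APOA1 and MYOD1 were above the median on all 4 arrays. The blood marker LYZ, the endothelial markers PECAM1 and VWF, the liver marker ALB and the fibroblast marker DCN were above it on none, and the summed level of the 8 was 8.40 and 8.47 with the CD plasmids and 8.64 and 8.45 with the FL plasmids.

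TET1 itself was read by 2 clusters. In 16715048 the vector array read 5.86, TET1-CD and mTET1-CD 12.10 and 12.03, and the FL arrays 11.80 and 11.91. FL minus CD in this cluster was -0.21 ± 0.32, with -0.30 and -0.12 in the pairs, and both FL arrays lay below both CD arrays. The SE also holds the gap between the TET1 shRNA clones, which read 5.27 and 6.20. Both constructs stood far above the vector in this cluster. In 16705381 the vector array read 9.51, the CD arrays 10.42 and 11.05, and the FL arrays 12.22 and 12.47. Here FL was higher by 1.61 ± 0.22 and the groups did not overlap. The stretch of TET1 behind either cluster, and the boundaries of the CD plasmid, are not stated in the labels. The clusters went opposite ways, so which construct gave more TET1 RNA cannot be told.

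No cluster passed the limma threshold for FL minus CD. The lowest Benjamini-Hochberg adjusted p was 0.114, shared by ANKRD1, MGAM, USP17L15, PLK2, COX6A1, MIR15B, FAU and LOC100272217 among named clusters. At an unadjusted limma p under 0.05 there were 3975 clusters (13.7%), 2566 (8.86%) higher and 1409 (4.87%) lower with FL. Among the 10797 named genes the order was the other way, with 436 (4.04%) higher and 526 (4.87%) lower. On simulated arrays of this design the fit recovered 3.6% of 2-fold, 80.8% of 4-fold and 94.4% of 8-fold differences, with 5.8 false calls per dataset, so a 2-fold difference was mostly below what these arrays could call. With enzyme state left out of the fit, wild type and mutant served as repeats of a construct, although they are different plasmids. In that fit 134 of the 28946 clusters passed, 123 higher and 11 lower. Of the 134, 51 were numbered before the first named cluster. The 11 named ones were ANKRD1, COX6A1, MIR15B, LOC100272217, MIR3143, PLK2, MIR4482, FAU and MGC12916, which were higher, and NCOA5 and MGAM, which were lower (limma adjusted p = 0.0340 to 0.0499). ANKRD1 passed the signal filter only through its 2 FL arrays and MGAM only through its 2 CD arrays, so each entered the test through the group in which it is high.

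The wild-type and the mutant pair share no array, and their differences ran together. Across the 28946 clusters, which are not independent, the wild-type difference (TET1-FL minus TET1-CD) and the mutant difference (mTET1-FL minus mTET1-CD) correlated at r = 0.566 and rho = 0.515. Anything else that the 2 FL arrays shared and the 2 CD arrays did not would enter both pairs too. The SD of the difference over clusters was 0.407 in the wild-type pair and 0.361 in the mutant pair, against 0.241 for TET1-CD minus mTET1-CD and 0.269 for TET1-FL minus mTET1-FL. It was 0.394 between the 2 TET1 shRNA clones. The step between constructs was thus wider than that between wild type and mutant, and about as wide as that between the clones.

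With FL, 298 clusters (1.03%) were at least 2-fold higher in both pairs and 26 (0.0898%) at least 2-fold lower. Where all 4 TET1 arrays had to lie above their median, the counts were 206 and 7. The arrays read whole cell populations, so more RNA per cell and more cells with the RNA cannot be told apart. Another 16 (0.0553%) were 2-fold apart in opposite directions, a count in which unnamed clusters with the same values stand separately. In the wild-type pair alone 745 clusters (2.57%) were higher and 203 (0.701%) lower, and in the mutant pair alone 608 (2.1%) and 108 (0.373%). At 1.5-fold the counts in both pairs were 1146 (3.96%) and 227 (0.784%), and among named genes 98 (0.908%) and 51 (0.472%). Without a fold limit, 33.5% of clusters were higher and 32% lower in both pairs, and 50.7% had a fitted difference above 0. Both FL arrays stood above both CD arrays in 27.6% of clusters and 22.9% of named genes, and below both in 25.7% and 31.4%. Few of the 2-fold clusters had a name, 16 of the 298 and 2 of the 26. The 16 were MIR554, ANKRD1, TET1, SCARNA22, COX6A1, MIR15B, USP17L15, USP17L12, USP17L9P, STC1, LOC100272217, MIR3143, PLK2, FOXD2-AS1, FAU and DDIT3, and the 2 were MGAM and DRC11. The USP17L genes are near-identical copies, USP17L12 and USP17L9P had the same value on every array, and their difference of 1.17 cannot be given to either. With each gene represented by its brightest cluster, a 2-fold excess held for 15 named genes (0.139%) and a 2-fold deficit for 2 (0.0185%). The 15 genes are fewer than the 16 named clusters because not all of those are the brightest cluster of their gene. Just inside the 2-fold line on the higher side stood DDIT3 and FAU, whose smaller pair differences were 1.02 and 1.06, and just outside it KRABD2 (0.996) and MIR4482 (0.982). On the lower side DRC11 was the nearest inside, at -1.09 in the mutant pair, and MIR570 (-0.88) and C2orf66 (-0.85) the nearest outside.

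**Figure D1:**
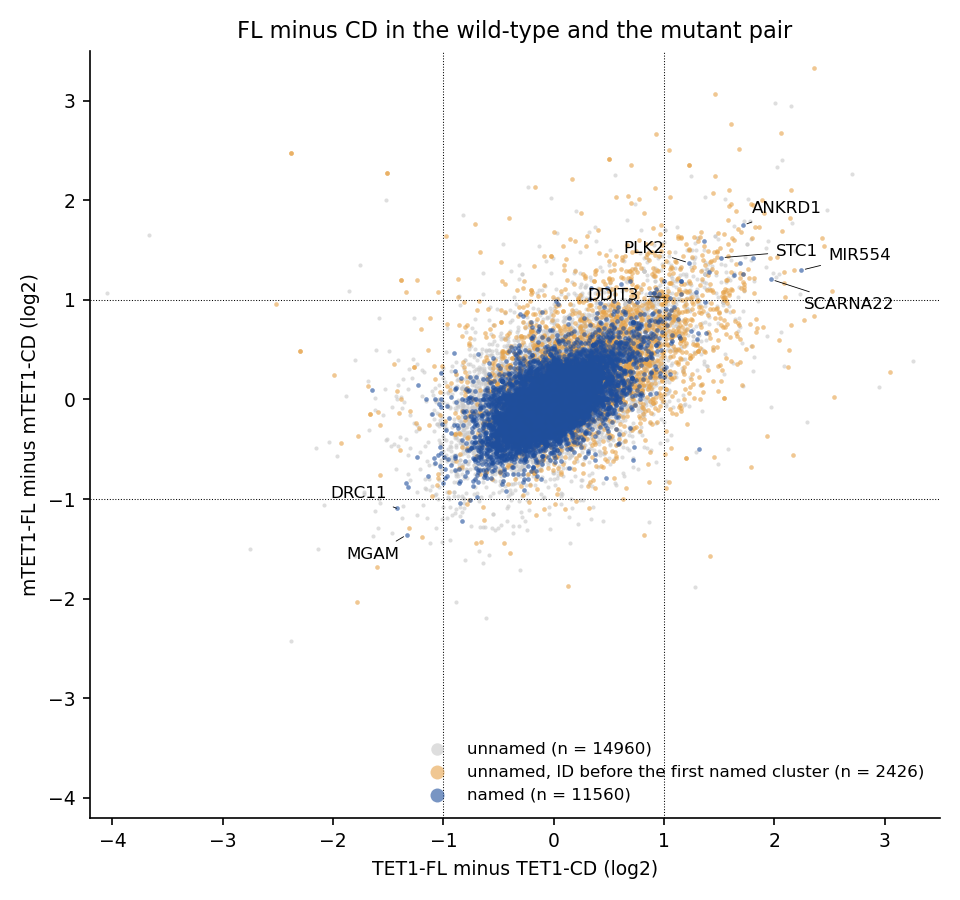
Difference between FL and CD in the wild-type pair (x axis, log2) against that in the mutant pair (y axis, log2), 1 point per kept transcript cluster, with dotted lines at 2-fold. Points lie along the rising diagonal (r = 0.566), ANKRD1, STC1 and PLK2 sit in the upper right corner with many unnamed clusters, and MGAM and DRC11 in the sparse lower left.

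ANKRD1, which encodes a stress-responsive ankyrin repeat protein and is a widely used target of the YAP and TEAD transcription factors, had an even excess in both pairs. It stood at 5.01 with the vector, 5.12 and 5.09 with TET1-CD and mTET1-CD, and 6.84 and 6.84 with TET1-FL and mTET1-FL, and in the shRNA arrays at 4.43, 4.33 and 4.50. Both FL arrays stood above all the others, and both CD arrays were near the vector. FL minus CD was 1.73 ± 0.13, a 3.32-fold difference, with 1.72 in the wild-type pair and 1.75 in the mutant pair (limma adjusted p = 0.114). The low values lie under the array medians, so the fold may be larger than measured.

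YAP and its partner TAZ carry signals of cell shape and contact to TEAD factors at target genes. The rest of their list did not follow ANKRD1. Of 27 genes, 15 were kept, 9 of them with a fitted difference above 0, and 5 were higher and 5 lower in both pairs (33.3% each way, near the 28.1% and 38.1% of all named genes). The median was 0.044, against -0.024 over all named genes, and it was -0.035 in the mutant pair alone. CCN2, a secreted matricellular protein, stood at 6.16 with the vector, 6.14 and 5.79 with the CD plasmids, and 6.72 and 6.59 with the FL plasmids (0.68 ± 0.14). The angiomotin gene AMOTL2 followed at 0.34, whereas TEAD1, itself the DNA-binding partner, stood at -0.22, AJUBA at -0.28 and AXL at -0.12.

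Of the 15 kept list members, 4 had both FL arrays above both CD arrays and 4 below, against 22.9% and 31.4% of all named genes. ANKRD1 and CCN2 were among the former, and their promoters are shown. The windows are the 250 bases before the RefSeq start (GRCh38.p14), with CATTCC or its complement GGAATG, the letters of a TEAD site, in capitals.
ANKRD1, chr10:90921088-90921337, minus strand: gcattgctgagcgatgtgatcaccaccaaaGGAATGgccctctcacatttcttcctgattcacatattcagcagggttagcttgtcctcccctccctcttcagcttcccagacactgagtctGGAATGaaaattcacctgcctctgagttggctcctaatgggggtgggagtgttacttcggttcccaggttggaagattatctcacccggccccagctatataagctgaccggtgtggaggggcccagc
CCN2, chr6:131951373-131951622, minus strand: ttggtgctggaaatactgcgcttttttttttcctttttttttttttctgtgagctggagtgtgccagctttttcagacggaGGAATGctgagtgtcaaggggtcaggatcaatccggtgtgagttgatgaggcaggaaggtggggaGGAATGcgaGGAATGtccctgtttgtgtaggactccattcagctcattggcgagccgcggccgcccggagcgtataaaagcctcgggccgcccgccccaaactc
ANKRD1 had 2 matches and CCN2 3. Such letters occurred in 11.9% of the 27305 promoters of this length in the table and in 3 of the 11 list members that had one. A match is a string of letters and not a shown site.

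STC1, a secreted glycoprotein hormone whose gene responds to low oxygen, gave the other pattern. It stood at 7.55 with the vector, 6.16 and 5.97 with TET1-CD and mTET1-CD, and 7.67 and 7.39 with TET1-FL and mTET1-FL. The FL arrays lay on either side of the vector value and the CD arrays lay well under it. FL minus CD was 1.47 ± 0.25, a difference of 1.52 in the wild-type pair and 1.42 in the mutant pair (limma adjusted p = 0.137). The shRNA arrays had 3.93 in the control clone and 6.13 and 5.45 in the TET1 clones, so this gene varied widely among cells without a TET1 plasmid too.

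The hypoxia and glycolysis genes, which the HIF factors turn on when oxygen is short, stood higher with FL as a group. All 17 kept members of 28 had a fitted difference above 0, against 44.7% of all named genes, and 16 were higher in both pairs, against 28.1%. None passed the adjusted threshold, and 8 had an unadjusted limma p under 0.05, against 4.04%. The median was 0.36, at 0.47 in the wild-type pair and 0.30 in the mutant pair. After STC1 came the vasodilator peptide gene ADM (0.65 ± 0.24), ANKRD37 (0.65 ± 0.14), NDRG1 (0.59 ± 0.17) and the mitophagy receptor BNIP3 (0.49 ± 0.12). NDRG1, at 8.17 with the vector, stood at 7.22 and 7.44 with CD and at 7.97 and 7.88 with FL. The collagen cross-linker LOX (0.45), the oxidase ERO1A (0.45) and BNIP3L (0.36) had the same order of levels, with CD lowest. VEGFA and EGLN3, both HIF targets as well, differed by 0.051 and 0.014. Of the glycolytic enzymes, HK2 stood at 0.36, LDHA at 0.27 and PGK1 at 0.24, each with p above 0.05.

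Both FL arrays stood above both CD arrays in 16 of the 17 kept members, against 22.9% of all named genes. Of these, the promoter of ANKRD37 is shown because it holds the core ACGTG (or CACGT) of a HIF site, in capitals (GRCh38.p14).
ANKRD37, chr4:185396591-185396840, plus strand: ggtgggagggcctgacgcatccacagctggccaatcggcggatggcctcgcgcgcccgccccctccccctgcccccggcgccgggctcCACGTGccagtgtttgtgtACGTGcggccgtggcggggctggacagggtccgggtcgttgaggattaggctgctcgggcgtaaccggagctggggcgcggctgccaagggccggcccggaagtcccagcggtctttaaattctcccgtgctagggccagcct
It had 3 matches, 2 of which overlap in CACGTG, the palindrome of an E-box. The core occurred in 8 of the 13 hypoxia promoters in the table and in 18.7% of all 27305. The ADM promoter window held none.

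Genes that report on glucose through MondoA and its partner MLX, which bind E-boxes, had the highest list median, 0.71 over 7 kept members of 9. TXNIP, the thioredoxin inhibitor, stood at 9.64 with the vector, 8.57 and 8.49 with CD, and 9.14 and 9.37 with FL (0.73 ± 0.20). Its relative ARRDC4 stood at 9.93, at 8.61 and 8.71, and at 9.38 and 9.35 in the same order (0.71 ± 0.25). In both, CD was lowest and FL lay between CD and vector. KLF10 stood at 0.76 ± 0.13, and ARRDC3, another arrestin-like gene, at 1.01 ± 0.24. ARRDC3 was different against the vector, with 8.13 there, 8.91 and 8.73 with CD, and 9.87 and 9.79 with FL. The factors themselves stood lower with FL, MLX at -0.40 ± 0.13 and MLXIP, which encodes MondoA, at -0.27 ± 0.14. HK2 and KLF10 belong to another list as well.

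The promoter of ARRDC4 is shown for its E-box CACGTG, in capitals (GRCh38.p14).
ARRDC4, chr15:97960453-97960702, plus strand: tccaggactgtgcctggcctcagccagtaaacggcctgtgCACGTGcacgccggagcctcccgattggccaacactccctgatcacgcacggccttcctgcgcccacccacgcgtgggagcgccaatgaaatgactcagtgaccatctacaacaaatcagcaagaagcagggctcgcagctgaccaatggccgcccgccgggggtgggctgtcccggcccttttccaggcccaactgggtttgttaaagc
This palindrome occurred in 2 of the 6 promoters of the list and in 6.49% of all. The windows of TXNIP and ARRDC3 held no exact CACGTG. Other forms of the E-box were not searched, so whether those windows hold a MondoA site is not known here. Every CACGTG also holds the HIF core.

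Sterol synthesis genes, driven by SREBP2 when cells lack cholesterol, had a median of 0.13 over 15 kept members of 23, with 9 higher and 3 lower in both pairs (28.1% and 38.1% of all named genes). INSIG1, the sterol-regulated anchor of SCAP, stood at 10.82 with the vector, 9.60 and 9.79 with CD, and 10.28 and 10.29 with FL (0.60 ± 0.13). The enzymes IDI1 (0.56 ± 0.14), HMGCS1 (0.56 ± 0.15) and MSMO1 (0.48 ± 0.13) had that order of levels too, and SQLE stood at 0.19. Extracellular matrix genes had a median of 0.096 over 17 kept members of 49, with 10 higher and 1 lower in both pairs (58.8% and 5.88%, against 28.1% and 38.1%). Fibronectin, FN1, stood at 8.89 with the vector, 7.69 and 7.69 with CD, and 8.40 and 8.44 with FL (0.73 ± 0.12), and the protease inhibitor TIMP1 was higher by 0.77 ± 0.19.

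Immediate early genes, which growth factors and stress switch on within minutes, had a median of 0.45 over 24 kept members of 30. Of these, 19 were higher and 3 lower in both pairs (79.2% and 12.5%, against 28.1% and 38.1% of all named genes). An unadjusted limma p under 0.05 was found for 10 on the higher side and 0 on the lower, against 4.04% and 4.87%. JUNB, a subunit of the AP-1 factor, stood at 7.20 with the vector, 7.29 and 7.49 with CD, and 8.14 and 8.10 with FL (0.73 ± 0.13). CD was thus near the vector and FL above both. DUSP5 (0.77 ± 0.26), IER2 (0.74 ± 0.16), IER3 (0.73 ± 0.14) and FOS (0.82 ± 0.33) had FL arrays above the vector and the CD arrays too, and JUN (0.47 ± 0.19) had FL arrays at 10.72 and 10.83 beside 10.70 with the vector. FOS stood at 8.02 in the control shRNA clone and at 8.22 and 7.26 in the TET1 clones. Its FL arrays, at 7.48 and 7.38, lay within that range. DUSP5 stood at 5.84, 5.84 and 5.18 in those clones, below its FL arrays. EGR1 differed by 0.80 in the wild-type pair and 0.05 in the mutant pair. MYC stood at -0.25 ± 0.27 and DUSP2, which dephosphorylates MAP kinases, at -0.19 ± 0.15.

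Stress response genes were mixed. DDIT3, the CHOP factor of the unfolded protein and amino-acid responses, stood at 6.63 with the vector, 6.58 and 6.57 with CD, and 7.63 and 7.60 with FL (1.04 ± 0.20, 1.05 and 1.02 in the pairs). Only the FL arrays stood apart. The ATF4 list it belongs to had a median of 0.14 over 16 kept members of 26, 10 of them higher and 3 lower in both pairs (28.1% and 38.1% of all named genes), with GDF15 at 0.87 ± 0.18 and ATF3 at 0.68 ± 0.24, while the serine synthesis enzymes PSPH (-0.34) and PSAT1 (-0.26) stood lower. ATF3 is also on the immediate early list and GDF15 on the p53 list. Endoplasmic reticulum chaperones had a median of 0.13 over 8 members, led by MANF (0.54 ± 0.13), XBP1 (0.36) and SEL1L (0.19). Heat shock proteins had 0.093 over 9, with 0.21 in the wild-type pair and 0 in the mutant pair. Of these, 4 were higher and 3 lower in both pairs (44.4% and 33.3%, against 28.1% and 38.1%). BAG3 (0.47 ± 0.13), HSPB1 (0.45 ± 0.14) and HSPA1A (0.36, with 0.63 and 0.094 in the pairs) led, and the lowest member stood at -0.25. HSPA1A is a near-identical copy of a neighbouring gene and so uncertain.

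PLK2, a polo-like kinase gene that p53 and serum both induce, stood at 5.69 with the vector, 6.85 and 6.53 with CD, and 8.08 and 7.90 with FL. Both constructs stood above the vector and FL above CD, by 1.30 ± 0.13, with 1.23 and 1.37 in the pairs (limma adjusted p = 0.114). The p53 list had a median of 0.27 over 16 kept members of 27, with 9 higher and 3 lower in both pairs (28.1% and 38.1% of all named genes). At an unadjusted limma p under 0.05 there were 3 higher and 0 lower, against 4.04% and 4.87%. BBC3, which encodes the cell death protein PUMA, stood at 0.58 ± 0.12, BAX at 0.015 ± 0.13 and RRM2B at -0.20 ± 0.16. Large T antigen binds p53 in these cells.

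**Figure D2:**
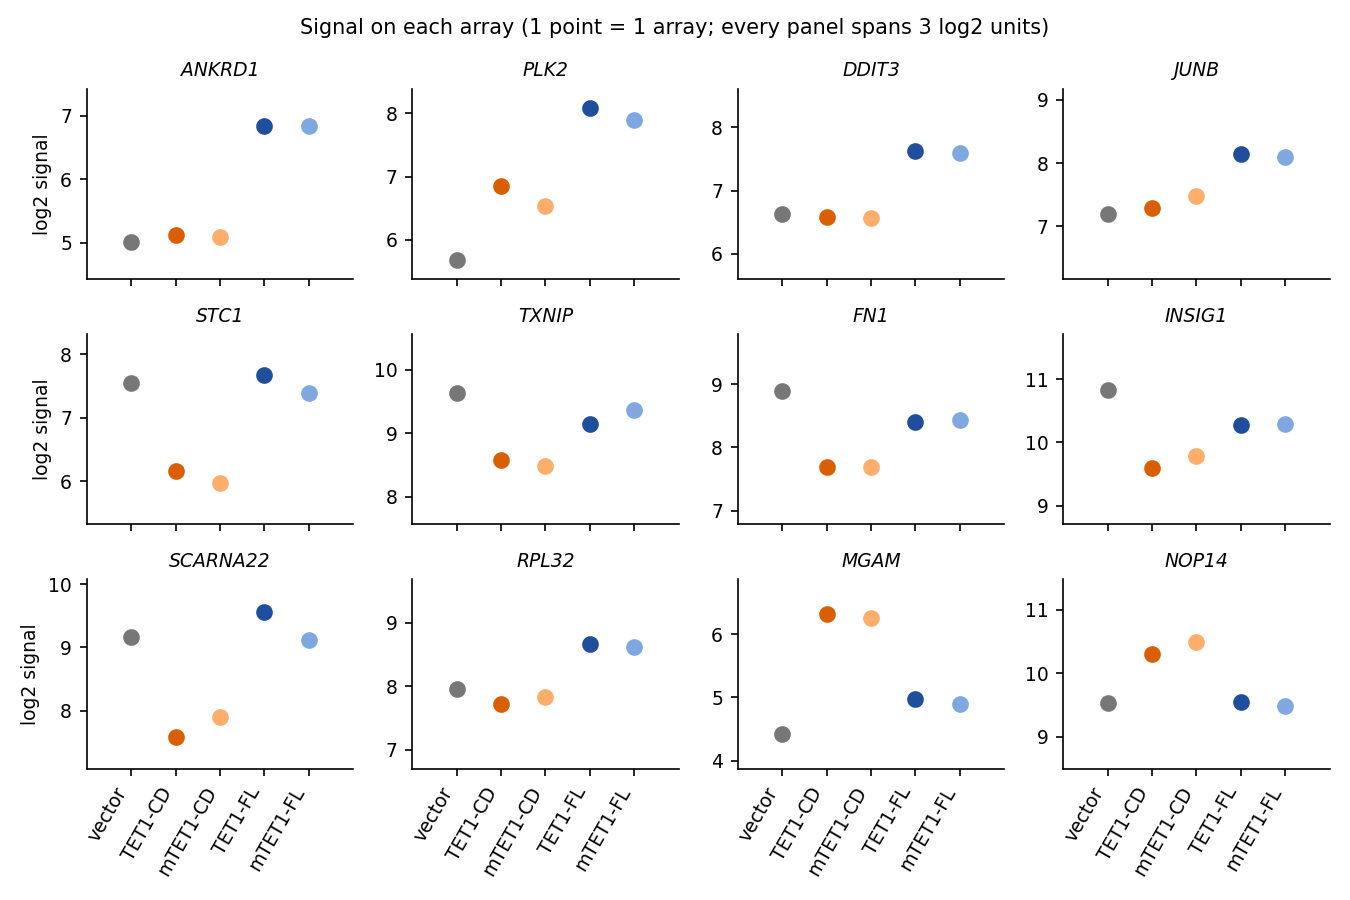
Log2 signal of 12 genes on the vector array and the 4 TET1 plasmid arrays, 1 point per array, each panel spanning the same 3 log2 units. ANKRD1, DDIT3 and JUNB have CD near the vector and FL above, STC1, TXNIP, FN1, INSIG1 and SCARNA22 have CD lowest, and MGAM and NOP14 have CD highest.

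Ribosomal protein genes stood higher with FL almost without exception. All 45 kept members of 76 had a fitted difference above 0 (44.7% of all named genes), and 44 were higher in both pairs (28.1%), with a median of 0.36 (0.43 in the wild-type and 0.29 in the mutant pair). None passed the adjusted threshold, and 24 had an unadjusted limma p under 0.05 on the higher side and 0 on the lower, against 4.04% and 4.87%. RPL32 stood at 7.95 with the vector, 7.72 and 7.83 with CD, and 8.66 and 8.62 with FL (0.87 ± 0.20). RPL29 (0.86 ± 0.15), RPL34 (0.74 ± 0.12) and RPS18 (0.59 ± 0.12) followed, and the vector lay between CD and FL in each. Many of these genes have processed pseudogenes that share their sequence, so how much signal comes from copies is not known here. FAU, whose product includes a ribosomal protein, stood at 7.33 with the vector, 7.07 and 7.26 with CD, and 8.22 and 8.32 with FL (1.11 ± 0.12).

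Among respiratory chain subunits, 10 of 15 kept members were higher and 1 lower in both pairs (28.1% and 38.1% of all named genes). The median was 0.15, and COX5B (0.75 ± 0.15), UQCRB (0.71 ± 0.14) and COX7B (0.53 ± 0.27) led. A cluster of COX6A1, a subunit of cytochrome oxidase, stood at 5.82 with the vector, 5.39 and 5.47 with CD, and 7.08 and 6.84 with FL (1.53 ± 0.15). It was dim without an FL plasmid, at 4.92 to 5.82. Its value is not among those of the list, whose highest was 0.75. Whether a brighter cluster reads COX6A1 is not given here.

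Small noncoding RNA genes gave several of the largest values. SCARNA22, a small Cajal body RNA that guides modification of spliceosomal RNA, stood at 9.16 with the vector, 7.59 and 7.91 with CD, and 9.56 and 9.11 with FL (1.59 ± 0.22). The class, chosen after its values were seen, had 23 kept members, 22 with a fitted difference above 0, 20 higher and 0 lower in both pairs (28.1% and 38.1% of all named genes), and a median of 0.56. SCARNA12 (1.02), SCARNA5 (0.95) and SCARNA6 (0.94) followed. Against the vector the class median was -0.33 with CD and 0.22 with FL.

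MicroRNA genes as a class did not lean to one side, with a median of 0.018 over 381 members, 122 higher and 107 lower in both pairs (32.0% and 28.1%, against 28.1% and 38.1% of all named genes). MIR554 stood at 5.94 with the vector, 5.62 and 6.01 with CD, and 7.86 and 7.31 with FL (1.77 ± 0.42). MIR15B stood at 5.95, at 4.66 and 4.62, and at 6.37 and 5.89 in that order (1.49 ± 0.16), with CD lowest and below the array medians. SMC4, the condensin gene whose intron holds MIR15B, was read by a separate cluster and stood at -0.28 ± 0.13, on the other side of 0. MIR570 was the lowest of the class at -1.10 ± 0.24. An array cluster named for such a gene reads labelled total RNA, and precursor and mature forms cannot be told apart in it. The mature sequences are given for these 3 genes from RefSeq (GRCh38.p14), 5′ to 3′, with the seed, bases 2 to 8, in capitals. No 2 of them share a seed, and both arms are shown where the table has both.
hsa-miR-554, chr1:151545811-151545831, plus strand: gCUAGUCCugacucagccagu
hsa-miR-15b-5p, chr3:160404607-160404628, plus strand: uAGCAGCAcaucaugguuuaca
hsa-miR-15b-3p, chr3:160404645-160404666, plus strand: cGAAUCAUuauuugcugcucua
hsa-miR-570-5p, chr3:195699425-195699446, plus strand: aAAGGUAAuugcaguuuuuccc
hsa-miR-570-3p, chr3:195699460-195699481, plus strand: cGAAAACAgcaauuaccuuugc

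MGAM, which encodes the brush-border enzyme maltase-glucoamylase, headed the lower side. It stood at 4.43 with the vector, 6.31 and 6.25 with TET1-CD and mTET1-CD, and 4.98 and 4.89 with TET1-FL and mTET1-FL, and at 4.40 to 4.47 in the shRNA arrays. The CD arrays thus stood above all 6 others, while the FL arrays were below the array medians. FL minus CD was -1.34 ± 0.12, with -1.33 and -1.36 in the pairs (limma adjusted p = 0.114). Other brush-border and digestive genes were not alike, with ENPEP at -0.35 ± 0.12, VIL1 at -0.048, MME at 0.028 and DPP4 at 0.034. ENPEP, like MGAM, passed the signal filter only through its CD arrays (5.88 and 5.58), the group in which it is high.

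The promoters of MGAM and PLK2 are shown together because the genes stood on opposite sides, with groups that did not overlap, and differ in CpG, the dinucleotide that TET1 acts on and that the CXXC finger binds. Every CG is in capitals (GRCh38.p14).
MGAM, chr7:141995629-141995878, plus strand: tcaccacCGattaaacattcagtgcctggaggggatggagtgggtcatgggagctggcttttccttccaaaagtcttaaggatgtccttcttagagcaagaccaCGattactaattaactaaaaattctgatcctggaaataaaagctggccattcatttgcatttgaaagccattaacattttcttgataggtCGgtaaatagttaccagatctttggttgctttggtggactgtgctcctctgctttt
PLK2, chr5:58460087-58460336, minus strand: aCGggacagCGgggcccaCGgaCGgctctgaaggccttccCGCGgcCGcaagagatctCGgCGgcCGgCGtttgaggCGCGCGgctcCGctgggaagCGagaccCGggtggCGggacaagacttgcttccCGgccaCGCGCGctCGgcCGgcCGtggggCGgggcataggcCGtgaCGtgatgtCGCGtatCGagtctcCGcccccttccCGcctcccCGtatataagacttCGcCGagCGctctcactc
MGAM had 3 CpG in 250 bases and PLK2 37, and ANKRD1 had 4 and DDIT3 24, so both CpG-poor and CpG-rich promoters occurred among genes higher with FL.

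DRC11, a gene of the regulatory complex that links dyneins in motile cilia, stood at 5.09 with the vector, 5.52 and 5.38 with CD, and 4.10 and 4.29 with FL (-1.26 ± 0.42). The vector, mTET1-CD and both FL values lay under the array medians, and the TET1-CD value lay within their range. The shRNA arrays had 6.33 in the control clone and 5.21 and 6.45 in the TET1 clones. The list of motile cilium and sperm tail genes was put together after values were seen, from symbol families and single genes such as NEK10 and PMFBP1. Its counts therefore describe the list and are no independent support. It had a median of -0.12 over 37 kept members, 4 higher and 22 lower in both pairs (28.1% and 38.1% of all named genes). At an unadjusted limma p under 0.05, 9 were lower (4.87%). CFAP44 stood at 6.32 with the vector, 7.47 and 7.28 with CD, and 6.77 and 6.30 with FL (-0.84 ± 0.14), NEK10 at -0.86 ± 0.23 and PMFBP1 at -0.85 ± 0.21. More abundant genes on the lower side were NOP14, a nucleolar factor of ribosome assembly, and NCOA5, a nuclear receptor coactivator. NOP14 stood at 9.53 with the vector, 10.31 and 10.49 with CD, and 9.55 and 9.48 with FL (-0.88 ± 0.13). NCOA5 stood at 7.83, at 9.20 and 9.11, and at 8.34 and 8.26 in that order (-0.85 ± 0.12). In both, FL lay nearer the vector than CD. The control shRNA clone and the TET1 clones stood at 10.56, 10.09 and 10.09 for NOP14. For NCOA5 they stood at 9.53, 9.47 and 9.44. These arrays, without a TET1 plasmid, thus lay nearer the CD arrays than the vector for both genes. The Wnt-responsive stem cell receptor LGR5 stood at -0.78 ± 0.19, whereas AXIN2, another Wnt target, stood at -0.056 and LEF1 at 0.39.

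Genes that write, remove or read DNA methylation were mixed, with 14 fitted differences below 0 and 9 above. Of 23 kept members of 31, 13 were lower and 3 higher in both pairs (TET1 among the 3), against 38.1% and 28.1% of named genes, and the median was -0.094. UHRF1, which brings DNMT1 to newly copied DNA, stood at 9.11 and 9.19 with CD and 8.84 and 8.48 with FL (-0.49 ± 0.15). The base-excision repair gene APEX1 stood at -0.41 ± 0.13, the methyltransferase gene DNMT3B at -0.36 ± 0.12, DNMT1 at -0.20 ± 0.12 and the glycosylase gene TDG, which excises oxidised methylcytosine, at -0.28 ± 0.13. TET2 differed by 0.0064. OGT, a partner of TET proteins, stood at 0.11 ± 0.16. Polycomb, SIN3 and NuRD subunits had a median of -0.055 over 25 members. Of these, 9 were higher and 12 lower in both pairs (36% and 48%, against 28.1% and 38.1% of all named genes). None had an unadjusted limma p under 0.05. The largest differences were those of EZH2 (-0.37 ± 0.15), HDAC1 (-0.32 ± 0.13) and SUZ12 (-0.31 ± 0.14), and the highest member stood at 0.29. Mitotic genes had a median of -0.093 over 33 members, with 17 lower and 7 higher in both pairs, and replication genes of -0.092 over 28, with 14 lower and 7 higher (38.1% and 28.1% of all named genes). The members with the largest differences did not share a side. PTTG1, which encodes securin, stood at 0.50 ± 0.13, KIF11 at -0.33 ± 0.14 and CDC25C at -0.30 ± 0.14. The replication gene CDC45 stood at -0.50 ± 0.16, PCNA at 0.42 ± 0.12 and CDT1 at 0.41 ± 0.14. At an unadjusted limma p under 0.05 there were 1 mitotic gene higher and 0 lower, and 2 replication genes higher and 1 lower.

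Gene classes linked to silencing by methylation had medians on either side of 0. Genes often methylated at CpG islands in cancer had a median of 0.11 over 25 kept members of 42, with 12 higher and 5 lower in both pairs (48% and 20%, against 28.1% and 38.1% of all named genes). The protocadherin PCDH10 led them at 8.44 with the vector, 7.84 and 7.80 with CD, and 8.79 and 8.69 with FL (0.92 ± 0.16), while SOCS1 and DKK1 stood at 0.38 and 0.33 and the tumour suppressor gene APC at -0.51 ± 0.14. Bivalent developmental factors (57 members) had a median of 0.023, with NKX2-5 at 0.51 ± 0.12, EMX2 at 0.40 and OTX2 at -0.39. HOX genes (26) had a median of 0.066, with HOXC11 at 0.34, HOXC8 at 0.30 and HOXB2 at 0.29. Imprinted genes (14) had a median of 0.0029, with HYMAI at 0.45, PEG10 at -0.25 and MKRN3 at 0.25. Germline and cancer-testis genes (7) had a median of -0.15, and HORMAD1, TKTL1 and TEX14 stood at -0.51, -0.41 and -0.31. Their differences were -1.03, -0.83 and -0.53 in the wild-type pair and 0.0013, 0.0067 and -0.089 in the mutant pair. The bivalent, imprinted, germline and microRNA medians crossed 0 under 1 alternative each. Zinc finger genes with ZNF symbols had a median of 0.054 over 383 members, led by ZNF211 (1.01), ZNF345 (0.95) and ZNF419 (0.93). Those on chromosome 19, chosen after values were seen, had 0.12 over 170, with 93 higher and 29 lower in both pairs (28.1% and 38.1% of all named genes).

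**Figure D3:**
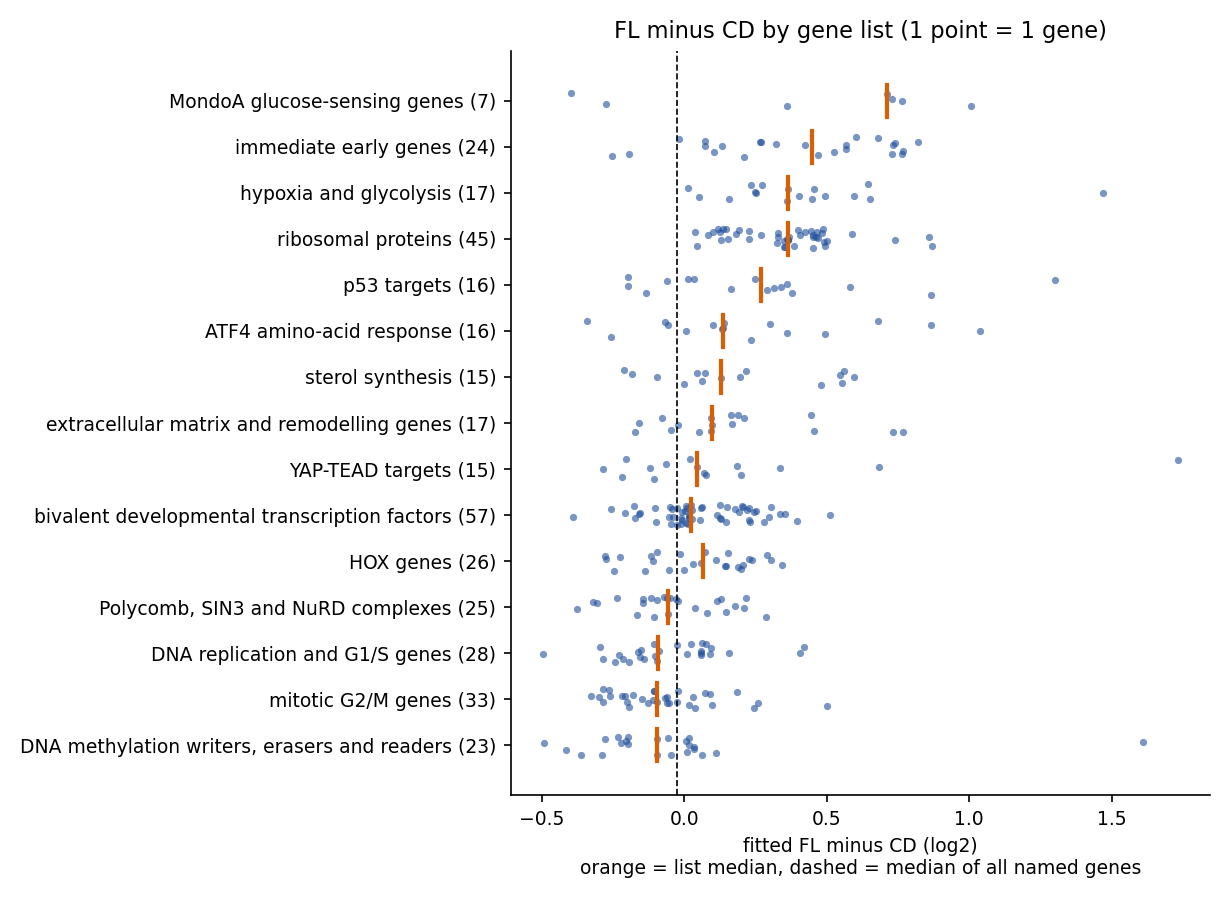
Fitted FL minus CD (log2) of each kept gene in 15 lists, 1 point per gene, with the list median in orange and the median of all named genes, -0.024, as a dashed line; the number of genes is in brackets. All points of the hypoxia and ribosomal lists lie right of 0, and the methylation list has TET1 far right of its other members.

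The vector array was used to place the 2 constructs, as a description of 1 array. Of the 298 clusters 2-fold higher with FL, the vector was nearer the CD mean in 195 (65.4%) and nearer the FL mean in 103 (34.6%), with a median FL minus vector of 0.93 and CD minus vector of -0.48. Of the 26 clusters 2-fold lower with FL, the vector was nearer FL in 21 (80.8%), with medians of -0.051 for FL minus vector and 1.30 for CD minus vector. Their median level was 5.59 with the vector and 5.02 and 5.17 with TET1-FL and mTET1-FL. These values are near or under the array medians (5.47 to 5.55). A cluster of either set could pass the signal filter through the group in which it is high, so this placing is no independent support. By list, hypoxia genes had a median of -0.0047 with FL and -0.44 with CD, sterol genes -0.23 and -0.45, matrix genes -0.28 and -0.46, and MondoA genes -0.064 and -0.36. Immediate early genes had 0.31 with FL and -0.057 with CD, ribosomal protein genes 0.11 and -0.19, and p53 targets 0.79 and 0.59. DNA methylation genes had 0.0056 with FL and 0.20 with CD. Both columns use the same vector array, so its own deviation enters both.

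**Figure D4:**
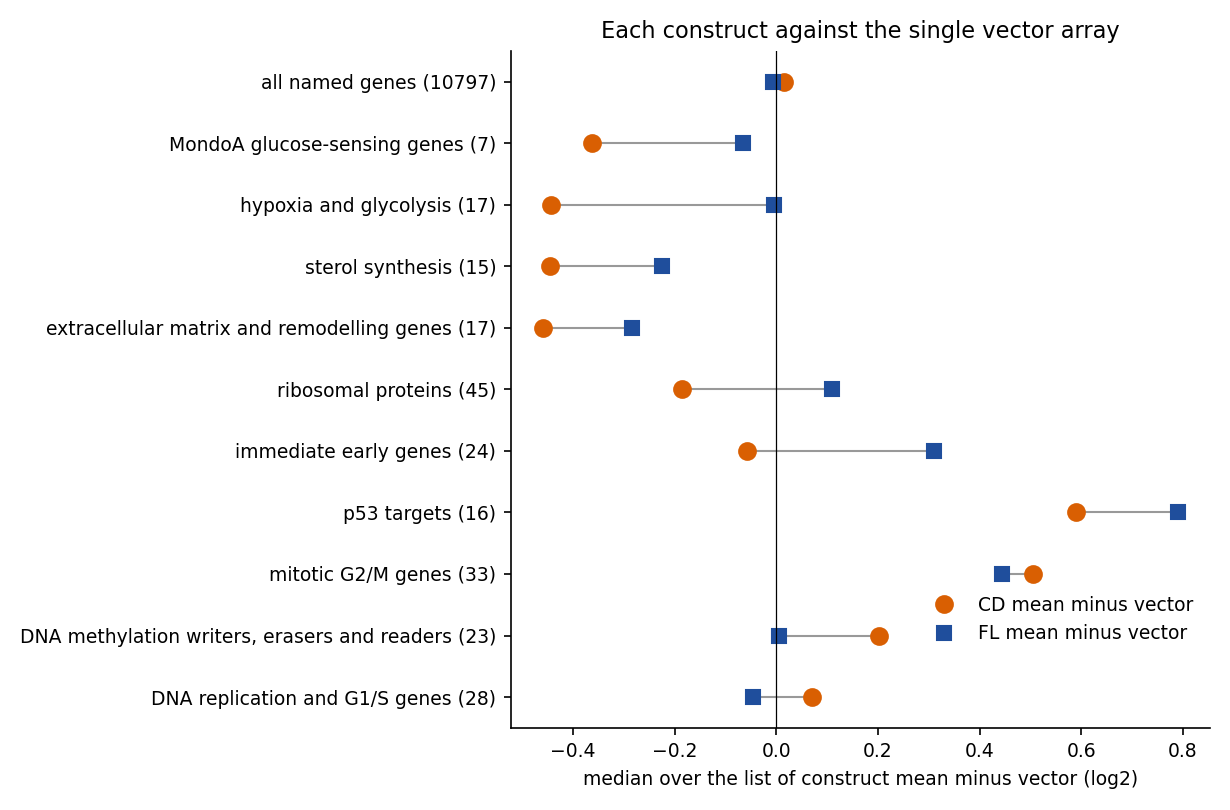
Median over each list of the FL mean minus vector (blue squares) and the CD mean minus vector (orange circles), in log2, for 10 lists and all named genes; the number of genes is in brackets. Hypoxia genes have the FL median near 0 and the CD median at -0.44, whereas immediate early genes have CD near 0 and FL at 0.31.

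Most clusters that were 2-fold higher with FL had no name. Of the 298, 152 (51.0%) belong to a block of 2426 unnamed clusters (8.38% of those kept) whose numbers come before that of the first named cluster. The median FL minus CD in this block was 0.38, with 0.40 in the wild-type and 0.38 in the mutant pair, and 6.27% of it was 2-fold higher in both pairs. Without the block 146 clusters were higher and 22 lower. What these clusters read is not stated in the annotation used, and the excess of higher over lower clusters rests in large part on them.

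Among named genes the difference followed gene length weakly. Genes were split into 5 equal classes by genomic length. The shortest class (median length 2662 bases) had a median FL minus CD of 0.049 and the longest (146402 bases) of -0.076, and protein-coding genes alone gave 0.044 and -0.076. In the same order 40.5% and 18.7% were higher, and 22.1% and 49.1% lower, in both pairs. Signal moved with it, the dimmest of 5 classes having a median of -0.0044 and the brightest -0.079. By promoter CpG content, over the 8288 named genes with a RefSeq promoter, the lowest of 5 classes of observed over expected CpG had a median of -0.0095 and the highest of -0.061. The part that length or signal has in the list medians was not tested.

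**Figure D5:**
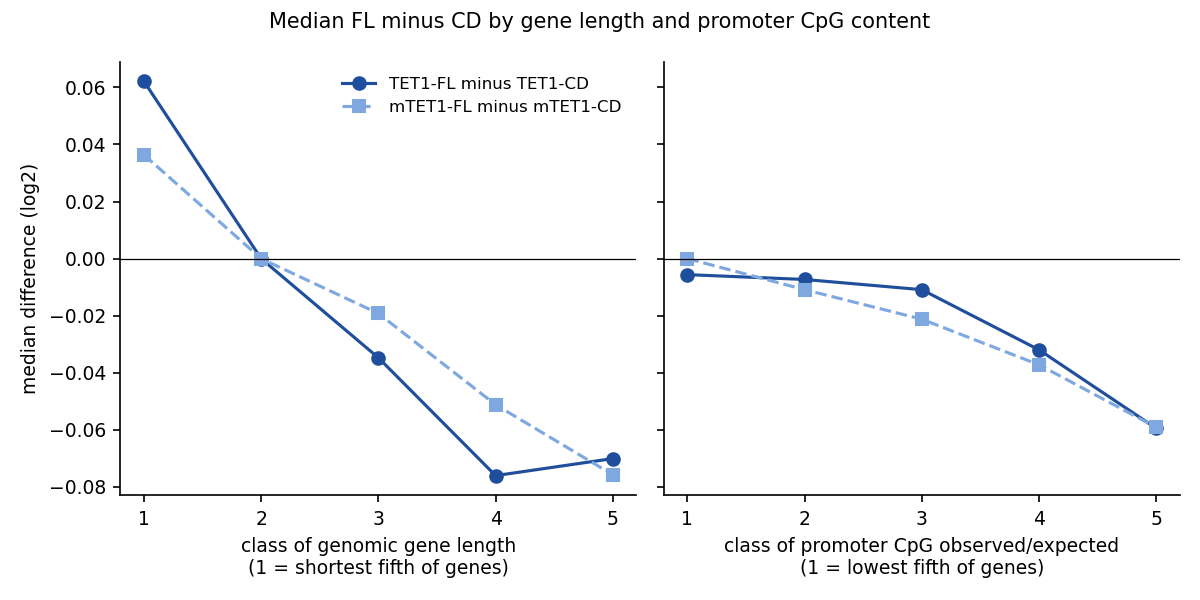
Median difference between FL and CD (log2) in 5 equal classes of gene length (left) and of promoter CpG observed over expected (right), for the wild-type pair (dark circles) and the mutant pair (light squares). Both pairs are lower in the last class than in the first, at 0.062 and 0.036 in the shortest genes and -0.070 and -0.076 in the longest.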

How the data were processed

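Per the submitters' processing notes, the authors used Affymetrix Expression Console 1.3.1 and RMA, and the deposited table holds log2 values. RMA's background step can compress low signals. No build is named in the labels. Of 53981 clusters, 364 were empty. All 8 arrays entered a limma 3.58.1 fit (R 4.3.3) with terms for each shRNA kind, the vector, enzyme state (wild type or mutant) and construct. Its 2 residual degrees of freedom are the gap between the shTET1 clones and wild type minus mutant in CD against FL, so p-values do not reflect replicate cultures. The prior (2.89 degrees of freedom) had SD 0.154. Adjusted p-values are Benjamini-Hochberg, threshold 0.05. A gene with several clusters was represented by the brightest. Genes named are TET1, ANKRD1, STC1, MGAM, named clusters 2-fold apart in both pairs, the largest 3 of each list described, and the largest differences between pairs; others were named after their values were seen. Members and lists were chosen with earlier results of these data known. The fit was tested on 5 simulated datasets with 200 changed clusters. Alternatives were normalization, centring, filters, arrays, enzyme term, prior, 1 cluster per symbol and leaving out each pair. Names and sequences came from the platform annotation and RefSeq (GRCh38.p14).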

Additional observations from a re-analysis of the deposited data

Results flagged for a closer look

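Named clusters in which the wild-type and the mutant pair had opposite signs, or which stood farthest apart between the pairs, are given as values, and the difference was not tested because each construct and enzyme state had 1 array. The pseudogene MSX2P1 stood at 1.32 in the wild-type and -0.50 in the mutant pair, a difference of 1.82. MIR3194 stood at 0.72 and -0.61, a difference of 1.33, and the vault RNA gene VTRNA1-2 at 0.48 and -0.79, a difference of 1.27. On the other side were the zinc finger gene ZNF430, at -0.91 and 0.46 (-1.37), and MIR378E, at -1.23 and 0.14 (-1.37). The pseudogene HNRNPA1P33 stood at -1.65 in the wild-type pair and 0.090 in the mutant pair (-1.74). Several of these rest on readings under the array medians (5.47 to 5.55). TET1-FL read 4.08 for HNRNPA1P33 and 4.62 for MIR378E, mTET1-FL 4.62 for VTRNA1-2, and TET1-CD 5.12 for MSX2P1. MIR3194 and ZNF430 stood above the medians on all 4 TET1 arrays. Across all kept clusters 16 were at least 2-fold apart in opposite directions, 2 of them higher with FL in the wild-type pair and 14 in the mutant pair.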

How the results depend on the processing

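No cluster passed the adjusted limma threshold under any alternative except the fit with no term for enzyme state, which called 134. That fit has 3 residual degrees of freedom in place of 2 and does not pair the arrays. The other fits pair the arrays by enzyme state through its term, and the labels' replicate numbers pair none. The count of clusters 2-fold higher in both pairs was 146 without the unnamed clusters numbered before the first named one, an alternative chosen after seeing the data, and 1146 at 1.5-fold. The count 2-fold lower was 227 at 1.5-fold and 7 where all 4 TET1 arrays had to lie above their median. Cyclic loess, centring and no filter left both counts within 1.5 times. Of the clusters named by the rule, 11 turned sign when 1 pair was left out. Over the mutant and the wild-type pair alone, the values ran from -0.50 to 1.32 for MSX2P1, -0.61 to 0.72 for MIR3194, -0.79 to 0.48 for VTRNA1-2, -0.096 to 0.55 for MYOD1, -0.91 to 0.46 for ZNF430, -1.23 to 0.14 for MIR378E, -1.65 to 0.090 for HNRNPA1P33, -0.52 to 0.0068 for PEG10, -0.83 to 0.0067 for TKTL1, -1.03 to 0.0013 for HORMAD1 and -0.10 to 0.0084 for VIL1. EPCAM (-0.61 in the wild-type pair and 0.096 in the mutant pair), PAX2 (0.10 and -0.15) and VTRNA1-1 (0.24 and -0.031), named outside that rule, also had opposite signs. The cause was not tested.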
